A study of Homo sapiens with 2 samples.

Results

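The genes described here are 44 genes of the endoplasmic reticulum (ER) protein-folding machinery, chosen by name from the 60711 genes listed in an RNA-seq table of A549 human lung cancer cells. They comprise 6 sensors and transcription factors of the unfolded protein response (UPR), 8 chaperones and their co-factors, 4 ER J-proteins and 10 oxidoreductases and prolyl isomerases. A further 10 act in ER-associated degradation and 6 in translocation into the ER or exit from it. They were grouped by known function, with no threshold on a measured value, and all 44 symbols were found in the table. The choice was made with earlier results of these data known.

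Proteins that enter the secretory pathway fold inside the ER with the help of chaperones, J-proteins and disulfide-forming enzymes, and proteins that fail to fold are sent back to the cytosol for degradation. The load of unfolded protein is sensed by the membrane proteins IRE1 (gene ERN1), PERK (gene EIF2AK3) and ATF6. IRE1 splices XBP1 mRNA so that it encodes an active transcription factor, ATF6 is cut in the Golgi to release another, and both raise transcription of chaperone and degradation genes through elements such as the ER stress response element (ERSE). PERK instead slows translation and favours synthesis of ATF4.

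RNA was taken from A549 cells 48 h after transfection with an siRNA by Lipofectamine 3000, which was either a control or directed against MILIP, and each condition gave 1 library. MILIP, also named MAFG-AS1, is a long noncoding RNA driven by c-Myc. The comparison addressed which transcripts differ when MILIP is silenced. A single MILIP siRNA sequence was used for the sequenced cells, so loss of MILIP and other effects of that siRNA cannot be told apart.

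The deposited values are read counts scaled per library, in which 1 read is worth 0.0501 and 0.0503, so that the control library holds 20300800 reads and the MILIP siRNA library 19460956. The smallest value above 0 in either library is worth 20 reads, and genes below that stand at 0. MILIP itself was at 29.5 under control siRNA and at 3.22 under its own siRNA. All 8 markers of A549 cells checked had values above 0 in both libraries, with sums of 12466 under control siRNA and 18198 under MILIP siRNA. Of 8 markers of immune, endothelial, fibroblast or normal alveolar cells, 5 were listed at 0 in both libraries and 3 (PTPRC, CD3E and DCN) have no value in the table. In bulk RNA, a difference in the share of cells with a given state and a difference in RNA per cell cannot be told apart, and gene-level values do not separate spliced from unspliced XBP1 mRNA.

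Since neither condition was repeated, no replicate error can be set beside the differences, and none was tested. Each is given as a log2 ratio of MILIP siRNA over control siRNA, computed after adding 1 to both values, for genes whose mean value was at least 1. Limits beside a ratio are 95% Clopper-Pearson limits of the ratio without that addition, and they cover counting error only. A gene is called higher or lower here where its ratio reaches 1.5-fold.

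Most chaperone and disulfide isomerase genes had higher values in the MILIP siRNA library, whereas EIF2AK3, a UPR sensor gene, and DNAJC3, a J-protein gene, had lower values. Of the 44 genes, 43 passed the filter, and DERL3 was listed at 0 in both libraries. Among these 43, 13 were at least 1.5-fold higher, beside 11.1% of the 13521 genes in the table that passed, and 2 were at least 1.5-fold lower, beside 13.8% of them. The 13 genes make up 30.2% of those that passed, and the 2 genes 4.65%. In all, 31 had a log2 ratio above 0 (72.1%) and 12 below 0, whereas 47.8% of all genes that passed were above 0. The median log2 ratio was 0.32, against −0.03 over all genes that passed. Counts for the groups below are to be read beside these shares over all genes.

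Counting error was small for nearly all of these genes. Each that passed was read at least 64 times in a library, and the 13 higher genes at least 581 times. For 11 of the 13 higher genes the limits lay wholly above 1.5-fold, the exceptions being XBP1 and PDIA5, and for both lower genes, EIF2AK3 and DNAJC3, they lay wholly past 1.5-fold lower. The limits held 0 for 6 genes. The values of all 43 genes summed to 8334 under control siRNA, 0.820% of that library, and to 11297 under MILIP siRNA, 1.15%.

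**Figure D1:**
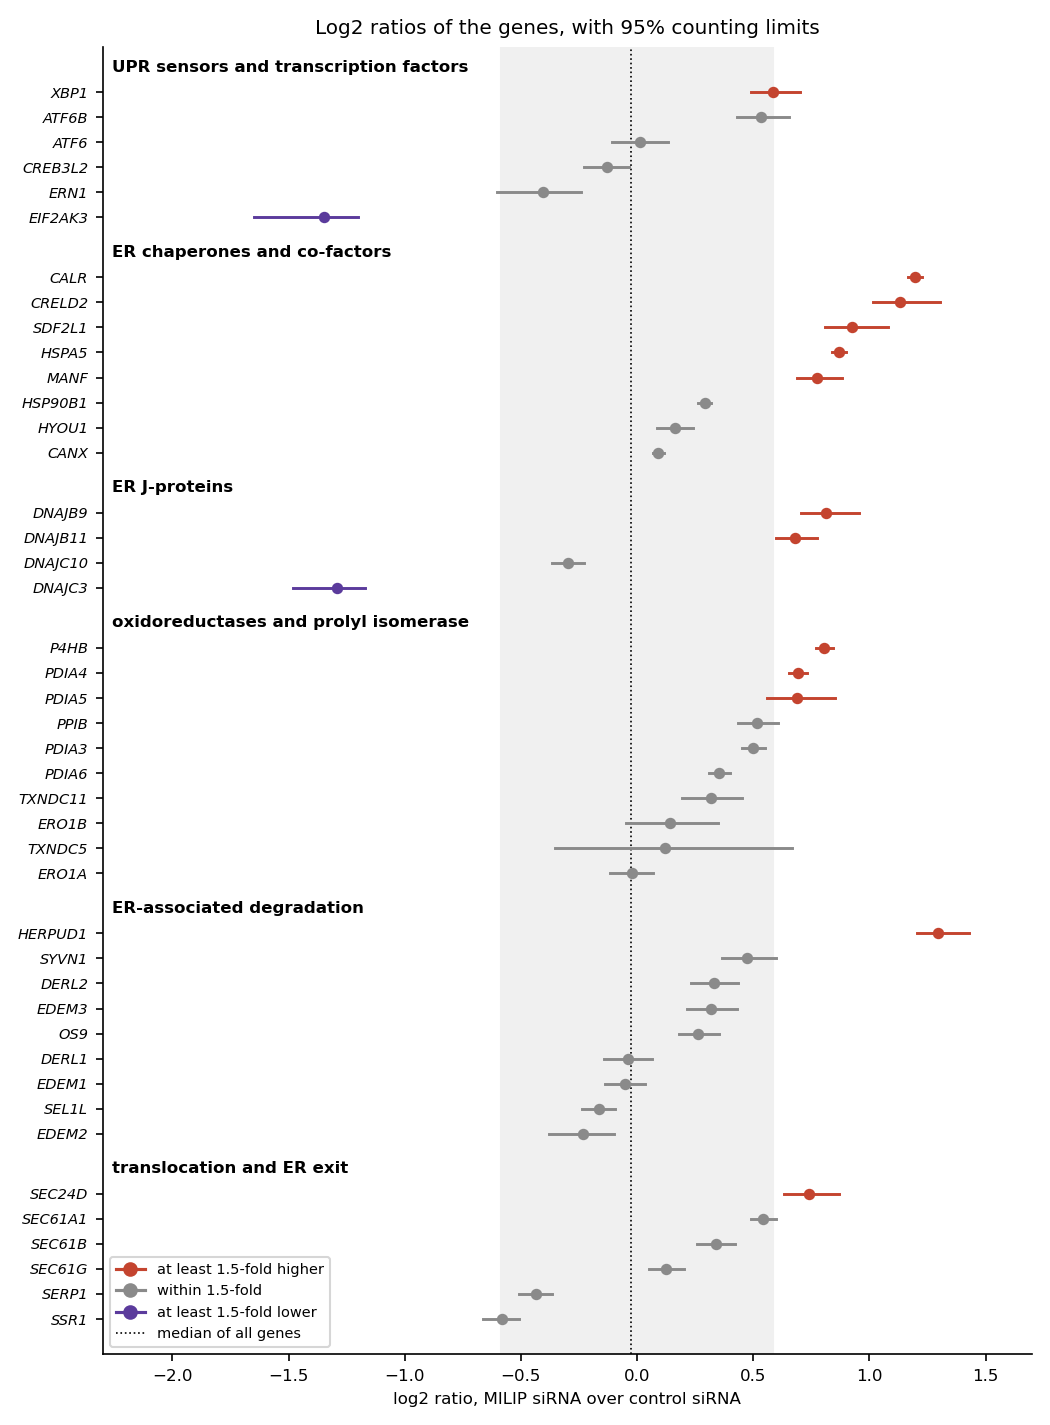
Log2 ratio of MILIP siRNA over control siRNA (x axis) for the 43 ER genes that passed the filter, grouped by role; points are ratios from 1 library per condition, horizontal lines are 95% limits that cover counting error only, the grey band marks ratios within 1.5-fold and the dotted line the median of all genes. HERPUD1 at 1.30 and CALR at 1.19 lie farthest to the right, and EIF2AK3 at −1.35 and DNAJC3 at −1.29 farthest to the left.

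The promoters of these genes are shown first, since ERSE and the related ERSE-II are the sequences through which ATF6 and XBP1 act on chaperone genes. ERSE was searched as CCAAT, then 9 bases of any kind, then CCACG. ERSE-II was searched as ATTGG, then 1 base of any kind, then CCACG, and the core of the XBP1-binding UPRE as TGACGTG. All were searched by exact letters on both strands of RefSeq windows from 250 bases before to 50 bases after each annotated start (GRCh38.p14). ERSE and ERSE-II share the CCACG end, but in the 44 genes no site of one overlapped a site of the other. A window was at hand for 40 of the 44 genes and for 27305 genes in all.

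An ERSE was found in 9 of the 40 genes (22.5%) and in 0.0916% of all genes with a window. They were HSPA5, CALR, CRELD2, XBP1, PDIA6, HSP90B1, ERO1B, CANX and SERP1. An ERSE-II was found in 3 (7.5%), namely HERPUD1, SDF2L1 and HYOU1, and in 0.0696% of all genes with a window. The UPRE core was found in 5 (12.5%), DNAJC10, HYOU1, SEC61A1, TXNDC5 and TXNDC11, and in 2.40% of all genes with a window. In HYOU1 it overlaps an ERSE-II. The genes were chosen as ER chaperones and targets of XBP1 and ATF6, factors that act through such elements. Higher shares than over all genes were therefore favoured by the choice itself, and are not a separate result.

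The region upstream of HSPA5, which encodes the chief ER chaperone BiP, is given as the reference case, with its exact ERSE match in capitals. Elements that depart from the searched letters, if any, are not marked. The region covers the 250 bases before the start site, chr9:125241344-125241593 on the − strand, and the matched ERSE begins at position −66.
HSPA5: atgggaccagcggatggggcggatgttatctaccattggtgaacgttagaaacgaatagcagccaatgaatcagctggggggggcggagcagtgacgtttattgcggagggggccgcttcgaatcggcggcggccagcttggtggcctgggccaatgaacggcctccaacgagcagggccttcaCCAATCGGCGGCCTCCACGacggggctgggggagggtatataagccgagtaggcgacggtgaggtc

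The sites of the other 5 genes that carry an ERSE or ERSE-II and were at least 1.5-fold higher follow, together with those of CANX and SERP1, which carry an ERSE and were not higher. Capitals mark the element, and each sequence is read along the gene's own strand. In CALR, CRELD2, SDF2L1 and SERP1 the element lies on the opposite strand, so its letters appear as the reverse complement. The stretches are chr16:56932015-56932045 (+) for HERPUD1, chr19:12938374-12938412 (+) for CALR, chr22:49918544-49918582 (+) for CRELD2 and chr22:21642104-21642134 (+) for SDF2L1. Those of XBP1, CANX and SERP1 are chr22:28800593-28800631 (−), chr5:179698768-179698806 (+) and chr3:150546700-150546738 (−).
HERPUD1: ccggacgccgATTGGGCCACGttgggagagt
CALR: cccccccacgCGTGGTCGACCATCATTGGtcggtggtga
CRELD2: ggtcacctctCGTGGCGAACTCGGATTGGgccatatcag
SDF2L1: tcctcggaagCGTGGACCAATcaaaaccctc
XBP1: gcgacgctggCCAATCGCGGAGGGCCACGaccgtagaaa
CANX: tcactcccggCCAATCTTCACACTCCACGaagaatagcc
SERP1: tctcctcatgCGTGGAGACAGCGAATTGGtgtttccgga

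Of the 12 genes with an ERSE or ERSE-II, 6 were at least 1.5-fold higher, none was at least 1.5-fold lower, and 11 had a log2 ratio above 0. Their median was 0.47, over a range from −0.43 for SERP1 to 1.30 for HERPUD1. Of the 28 genes with a window and neither element, 6 were higher, 2 were lower and 18 had a ratio above 0, with a median of 0.29. The 5 genes with the highest ratios of all 43, HERPUD1, CALR, CRELD2, SDF2L1 and HSPA5, each carried an ERSE or ERSE-II, as was seen once the ratios were known. This did not hold with the GC trend removed, where DNAJB9, in which neither was found, was at 1.02 and SDF2L1 at 0.65. XBP1, among the 6 higher genes with an element, was then at 0.53, short of 1.5-fold. None of the 5 genes with the UPRE core was past 1.5-fold in either direction, their median being 0.16. Most genes that passed stayed within 1.5-fold too, with 11.1% higher and 13.8% lower. Outside the 44 genes, 17 genes that passed the filter carried an ERSE or ERSE-II, and 4 of them were at least 1.5-fold higher, none at least 1.5-fold lower, with a median of 0.10. EIF2A, among the 17, overlaps SERP1 on the opposite strand. Whether sites of the 17 are the same as sites of the 44 genes was not examined. Of 10286 other genes with neither element, 10.6% were higher and 13.9% lower, with a median of −0.03. A match of letters is not a site shown to be bound, and the windows do not reach elements farther away. Elements with other letters were not searched, so genes counted with neither element may still hold a divergent one.

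**Figure D2:**
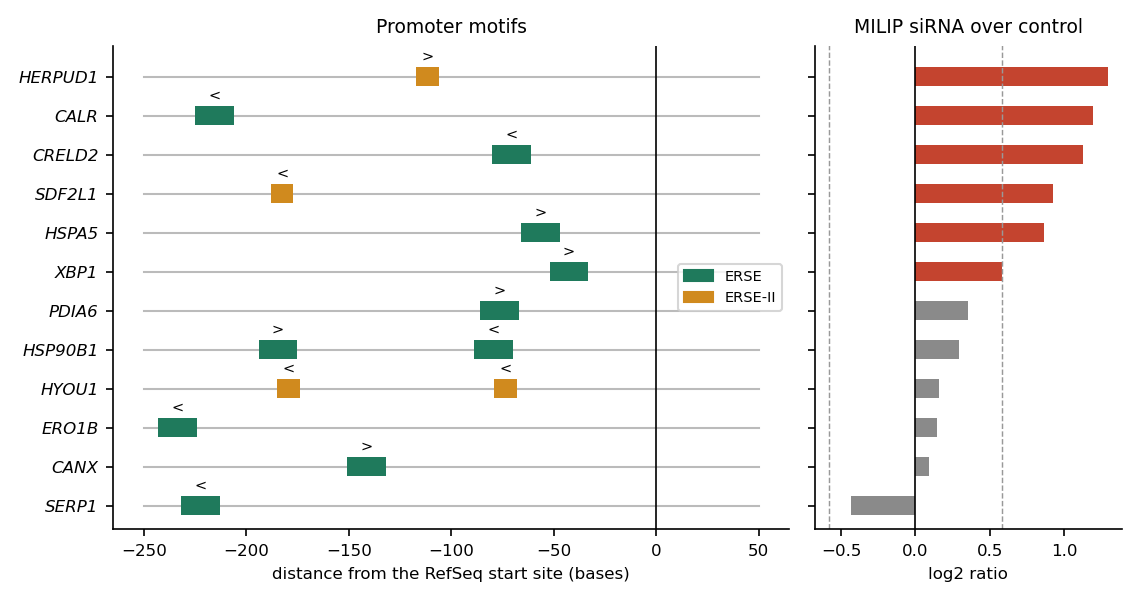
Left, position of exact matches to ERSE (green) and ERSE-II (orange) in the promoter windows of 12 ER genes, as distance in bases from the RefSeq start site, with > for the gene's own strand and < for the opposite strand; right, log2 ratio of MILIP siRNA over control siRNA as bars, red where at least 1.5-fold higher and grey where within 1.5-fold (dashed lines). The genes are ordered by ratio, from HERPUD1 at 1.30 to SERP1 at −0.43.

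Among the sensors and transcription factors, 1 of 6 was higher and 1 was lower, 16.7% each, beside 11.1% and 13.8% of all genes that passed. The median log2 ratio was −0.06, which became 0.076 once the trend of all genes with transcript GC content was removed. XBP1, the transcription factor activated by IRE1, had a value of 60.6 under control siRNA and 91.4 under MILIP siRNA (log2 ratio 0.59, limits 0.49 to 0.70). This is only just past the 1.5-fold threshold, and with the GC trend removed the ratio was 0.53, short of it. ATF6 was at 57.3 and 57.8 (0.01, limits −0.11 to 0.13), and its ratio was 0.19 with the GC trend removed. ATF6B, its close relative, was at 54.7 and 79.7 (0.53, limits 0.43 to 0.65), and its ratio was 0.41 with the GC trend removed.

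The genes of the other sensors had log2 ratios below 0. ERN1, which encodes IRE1, was at 29.8 under control siRNA and 22.3 under MILIP siRNA (−0.40, limits −0.60 to −0.24). EIF2AK3, which encodes PERK, was at 30.6 and 11.4 (−1.35, limits −1.65 to −1.20), a ratio above that of only 2.15% of all genes that passed. EIF2AK3 (ENSG00000172071) lies at chr2:88556741-88627576 on the − strand, and 16.2% of its exonic bases overlap an antisense gene. CREB3L2, an ER-bound transcription factor of the family of ATF6-like proteins, was at 90.0 and 82.1 (−0.13, limits −0.23 to −0.03).

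The chaperones and their co-factors had the highest median of the 6 groups, 0.82. At least 1.5-fold higher were 5 of 8 (62.5%), beside 11.1% of all genes that passed. All 8 had a log2 ratio above 0, as did 47.8% of all genes that passed. HSPA5, encoding the HSP70-type chaperone BiP that also holds the UPR sensors inactive, was at 725 under control siRNA and 1323 under MILIP siRNA (0.87, limits 0.84 to 0.90). CALR, encoding the lectin chaperone calreticulin, was at 614 and 1406 (1.19, limits 1.17 to 1.23), above 97.9% of all genes that passed. Its membrane-bound relative CANX, encoding calnexin, was at 1568 and 1671 (0.09, limits 0.07 to 0.11). Calreticulin and calnexin bind the same class of glycoproteins, and an ERSE stands in the promoters of both genes, but only CALR was past 1.5-fold and the counting limits of the pair did not overlap.

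HSP90B1, which encodes the HSP90-type chaperone GRP94, was at 1041 and 1274 (0.29, limits 0.26 to 0.32). HYOU1, encoding a nucleotide exchange factor of BiP, was at 130.1 and 145.7 (0.16, limits 0.09 to 0.24). Both were higher by less than 1.5-fold, unlike BiP itself. SDF2L1, a partner of ER J-proteins, was at 33.7 and 64.9 (0.93, limits 0.81 to 1.08). MANF, a secreted ER stress protein that binds BiP, was at 68.0 and 117.2 (0.78, limits 0.69 to 0.88). CRELD2, another ER stress-induced protein, was at 29.1 and 65.0 (1.13, limits 1.02 to 1.30). These smaller partners of the folding machinery were thus all past 1.5-fold. With the GC trend removed SDF2L1 was at 0.65, MANF at 0.72 and CRELD2 at 0.95, lower but still past it, whereas HSPA5 rose to 0.94.

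The J-proteins, which direct client proteins to BiP and stimulate its ATPase, differed in direction. DNAJB9 was at 41.7 under control siRNA and 74.1 under MILIP siRNA (0.81, limits 0.71 to 0.95), and DNAJB11 at 81.5 and 131.2 (0.68, limits 0.60 to 0.78). DNAJC3, which encodes the co-chaperone also known as p58IPK, was at 60.9 and 24.3 (−1.29, limits −1.48 to −1.17). DNAJC10, encoding a disulfide reductase that works with BiP in degradation, was at 191.0 and 155.4 (−0.30, limits −0.37 to −0.23). DNAJC3 (ENSG00000102580, chr13:95677139-95794989 on the + strand) shares no exonic bases with another annotated gene, and its ratio was above that of 2.49% of all genes that passed. The median of the 4 genes was 0.19.

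Among the oxidoreductases and prolyl isomerases, 3 of 10 were at least 1.5-fold higher, none was lower by that much and 9 had a log2 ratio above 0. Over all genes that passed, 11.1% were higher, 13.8% lower and 47.8% above 0. The protein disulfide isomerase genes, whose products form and rearrange disulfide bonds, accounted for all 3 of the higher genes in this group. P4HB was at 453 under control siRNA and 792 under MILIP siRNA (0.81, limits 0.77 to 0.84). PDIA4 was at 416 and 672 (0.69, limits 0.65 to 0.73), and PDIA5 at 31.2 and 50.9 (0.69, limits 0.56 to 0.85). The ratios of PDIA3 and PDIA6 were above 0 and within 1.5-fold. PDIA3, the isomerase that works with calreticulin and calnexin, was at 284 and 402 (0.50), and PDIA6 was at 344 and 440 (0.35). With the GC trend removed P4HB was at 0.61, only just past 1.5-fold, whereas PDIA3 rose to 0.66.

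The remaining genes of the group differed less. PPIB, encoding the prolyl isomerase cyclophilin B, was at 96.4 and 138.2 (0.52, limits 0.44 to 0.60), with 48.0% of its exonic bases shared with SNX22 on the other strand. TXNDC11 was at 43.5 and 54.5 (0.32). ERO1A and ERO1B, the oxidases that recharge protein disulfide isomerases, were both within 1.5-fold. ERO1A was at 92.8 and 91.3 (−0.02) and ERO1B at 20.5 and 22.7 (0.14), and the limits of both held 0. With the GC trend removed ERO1B was at 0.39, beyond its upper counting limit of 0.35. TXNDC5 was at 3.21 and 3.57 (0.12, limits −0.35 to 0.67), from 64 and 71 reads. Since 82.3% of its exonic bases also belong to a readthrough gene on the same strand, its value is uncertain.

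In ER-associated degradation, 1 of the 9 genes that passed was at least 1.5-fold higher (11.1%, as over all genes) and the median was 0.26. That gene, HERPUD1, had the highest log2 ratio of all 43 genes. Its product organises the membrane complex through which misfolded proteins leave the ER. It was at 45.1 under control siRNA and 112.2 under MILIP siRNA (1.30, limits 1.20 to 1.43), above 98.3% of all genes that passed. HERPUD1 (ENSG00000051108) lies at chr16:56932048-56944863 on the + strand, and no exonic bases are shared with another annotated gene.

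The ubiquitin ligase of this pathway and its partner had ratios on either side of 0, although that of SEL1L became 0.05 with the GC trend removed. SYVN1, encoding the ligase HRD1, was at 51.9 and 72.5 (0.47, limits 0.37 to 0.60), and SEL1L, encoding its adaptor, was at 177 and 158 (−0.16, limits −0.24 to −0.10). OS9, a lectin that delivers misfolded glycoproteins to this ligase, was at 98.9 and 118.9 (0.26). Of the mannosidase-like EDEM genes, whose products mark glycoproteins for degradation, EDEM3 was at 64.4 and 80.5 (0.32), EDEM1 at 110.5 and 106.5 (−0.05) and EDEM2 at 46.4 and 39.4 (−0.23). Of the derlins, which form part of the exit channel, DERL2 was at 69.1 and 87.1 (0.33) and DERL1 at 76.7 and 74.7 (−0.04). The limits of EDEM1 and DERL1 held 0. None of these genes reached 1.5-fold.

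Of the 6 genes of translocation and ER exit, 1 was at least 1.5-fold higher (16.7%, beside 11.1% of all genes that passed) and the median was 0.23. SEC24D, a cargo adaptor of COPII vesicles that leave the ER, was at 46.1 under control siRNA and 77.6 under MILIP siRNA (0.74, limits 0.63 to 0.87). The 3 genes here of the SEC61 channel, through which new chains enter the ER, had ratios above 0 and within 1.5-fold. SEC61A1, a pore subunit, was at 248 and 362 (0.54), SEC61B at 110.7 and 140.3 (0.34) and SEC61G at 137.3 and 149.8 (0.12). SEC61A2, the other alpha subunit and a gene of a further list, named after its value was seen, was at 18.6 and 17.3 (−0.10). The ratios of SSR1 and SERP1, the channel-associated genes of this group, were below 0. SSR1, a subunit of the translocon-associated protein complex, was at 169.5 and 113.1 (−0.58, limits −0.66 to −0.51), just short of 1.5-fold. SERP1, a small protein that stabilises membrane proteins at the channel, was at 190.8 and 140.9 (−0.43, limits −0.51 to −0.37). The complex partners of SSR1, from a further list, lay on both sides of 0. SSR2 had a ratio of 0.51 and SSR4, named after its value was seen, 0.35, but SSR3 had −0.60.

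**Figure D3:**
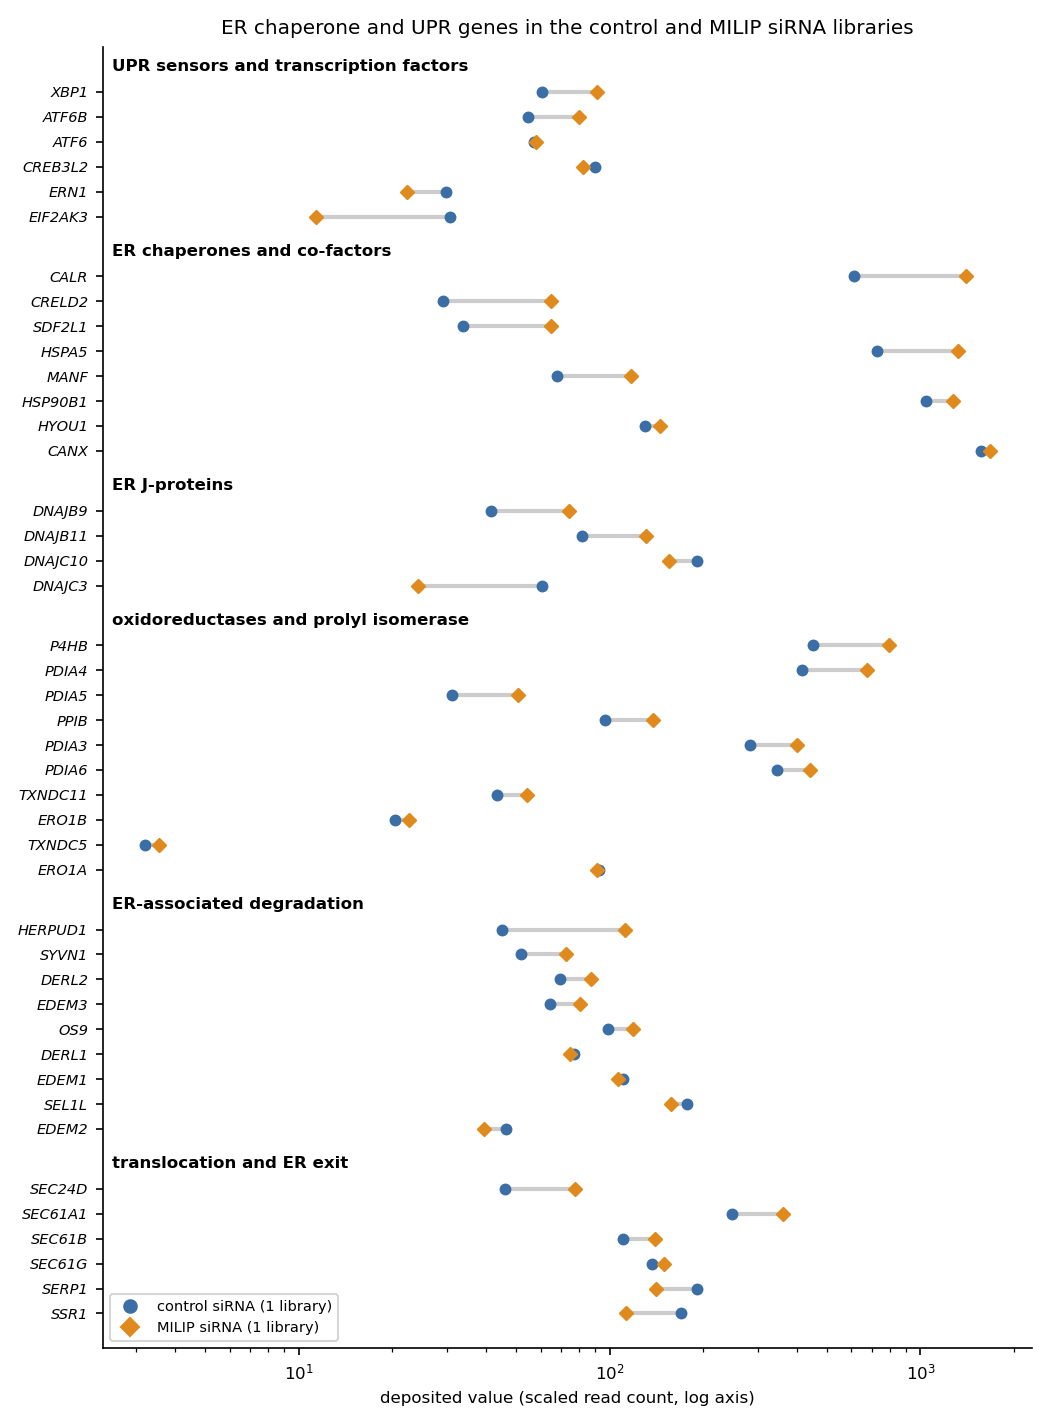
Deposited values (scaled read counts, log axis) of the 43 ER genes that passed the filter, grouped by role; circles are the control siRNA library, diamonds the MILIP siRNA library, 1 library each, with a grey line joining the pair. CANX, HSP90B1, HSPA5 and CALR have the highest values, and CALR goes from 614 to 1406.

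Per kilobase of 1 reference transcript per gene, the order of the 3 highest genes differed between the libraries. Levels can be compared between genes only as far as that transcript is the one expressed. In the control library CANX was at 368 per kilobase, HSP90B1 at 364 and CALR at 322. In the MILIP siRNA library CALR stood first at 739 per kilobase, before HSP90B1 at 446 and CANX at 392. In the control library SERP1 at 229.9, SEC61B at 203 and SEC61G at 188 per kilobase came next. The place of SERP1 is uncertain, since its reference transcript has 830 bases but its annotated exons cover 4244. HSPA5 was at 185 per kilobase under control siRNA and 339 under MILIP siRNA, and P4HB at 174 and 304. The 8 chaperone and co-factor genes summed to 4208 under control siRNA and 6067 under MILIP siRNA, a ratio of 1.44. The 10 oxidoreductase and prolyl isomerase genes summed to 1784 and 2667, a ratio of 1.49. The sensors and transcription factors summed to 323 and 345, a ratio of 1.07.

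The other genes of the ER and the UPR, from 8 further lists, give the setting of the 44 genes. Of 118 listed, 115 passed the filter, with a median log2 ratio of 0.19. Their share above 0 was 69.6%, near the 72.1% of the 43 genes. Of the 115, 17 were at least 1.5-fold higher (14.8%) and 10 at least 1.5-fold lower (8.70%), beside 11.1% and 13.8% of all genes that passed. The counts of each further list are to be read beside the same shares. The difference from the 44 genes was not tested. The arm that runs from PERK through ATF4 to CHOP had 4 of 14 genes higher, 1 lower and a median of 0.40, or 0.23 with the GC and length trends both removed. TRIB3, a pseudokinase induced by CHOP, was at 59.9 under control siRNA and 135.5 under MILIP siRNA (1.16), and DDIT3, encoding CHOP, was at 6.51 and 12.8 (0.87). The lowest genes of this arm were STC2, a secreted glycoprotein hormone, at 149.9 and 78.4 (−0.93), and PSAT1, an enzyme of serine synthesis, at 223 and 160 (−0.48).

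Glycan-handling genes are given by step. Of the 12 genes of oligosaccharyltransferase, the complex that attaches N-glycans, 1 was higher, none lower and 11 above 0, with a median of 0.30. OSTC was at 67.4 and 116.4 (0.78) and RPN1 at 234 and 324 (0.46), while STT3B was at 309 and 344 (0.15) and KRTCAP2 at 4.71 and 4.42 (−0.07). Of the 10 genes of the calnexin cycle and ER lectins, 2 were higher and the median was −0.09, or 0.01 with the GC trend removed. Both encode subunits of glucosidase II, the enzyme that trims glycans so that calnexin and calreticulin can bind. GANAB, the catalytic subunit, was at 189 and 555 (1.55), and PRKCSH, the regulatory subunit, at 178 and 326 (0.87). The lowest were MCFD2, a partner of the cargo receptor LMAN1, at 404 and 314 (−0.36), and UGGT2, a glycoprotein folding sensor, at 34.9 and 27.1 (−0.35).

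Further folding enzymes had 4 of 19 genes higher and 3 lower, with a median of 0.28. DNAJC1, an ER membrane J-protein, was at 30.9 and 54.3 (0.80) and PRDX4, the ER peroxiredoxin, at 97.5 and 166.7 (0.77). FKBP14, a prolyl isomerase, was at 31.0 and 15.5 (−0.95) and SELENOF at 129.0 and 69.9 (−0.88). Further degradation genes had 2 of 18 higher and 3 lower, with a median of 0.12. ERLIN2, which helps degrade ER calcium channels, was at 50.2 and 104.8 (1.05) and SELENOS, a selenoprotein of the exit complex, at 76.0 and 120.1 (0.65), whereas UBXN4 was at 157 and 69.7 (−1.16) and the ubiquitin ligase MARCHF6 at 154 and 75.7 (−1.02). The counts of this list, 11.1% higher and 16.7% lower, were near the 11.1% and 13.8% over all genes that passed.

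The lists for other translocation genes, the COPII coat and other UPR regulators had medians from 0.09 to 0.11. With the GC trend removed that of other translocation genes was 0.21, and with both trends removed that of the COPII coat was 0.26. Of 20 other translocation genes none was higher and 2 were lower, SRPRA, a subunit of the signal recognition particle receptor, at 112.0 and 63.2 (−0.82) and SSR3, which encodes a complex partner of SSR1, at 290.1 and 191.3 (−0.60). The highest of them, SEC11A at 224 and 325 (0.54) and SSR2 at 133.0 and 189.3 (0.51), did not reach 1.5-fold, and the median was 0.11. Of 11 COPII genes 2 were higher, SEC13 at 115.2 and 206.8 (0.84) and SEC24A at 52.1 and 80.6 (0.62). The lowest, SEC23B and SEC24B, were at −0.25 and −0.23, and the median log2 ratio was 0.09. Of the 11 other UPR regulators that passed, 2 were higher and 1 lower, with a median of 0.10. CREB3 and CREB3L4 encode relatives of CREB3L2. CREB3 was at 47.4 and 97.0 (1.02) and CREB3L4 at 6.56 and 12.3 (0.82). MBTPS2, the protease that makes the second cut in ATF6, was at 122.2 and 79.9 (−0.61), and NFYA, a subunit of the factor that binds the CCAAT part of ERSE, at 28.2 and 24.4 (−0.20).

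Chaperones outside the ER were listed beside those of the ER. Of 12 heat shock genes, 1 was higher and 1 lower, and the median log2 ratio was −0.07. Without HSPD1 and HSPE1, which act in mitochondria, the median of the 10 cytosolic genes was −0.28, and their values summed to 8761 under control siRNA and 7306 under MILIP siRNA, a ratio of 0.834. HSPH1, a nucleotide exchange factor of cytosolic HSP70, was at 337 and 125.0 (−1.42), and HSP90AA1 at 2561 and 1899 (−0.43). HSPB1, a small heat shock protein, was at 445 and 709 (0.67), and the inducible HSP70 gene HSPA1A at 153 and 207 (0.44).

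**Figure D4:**
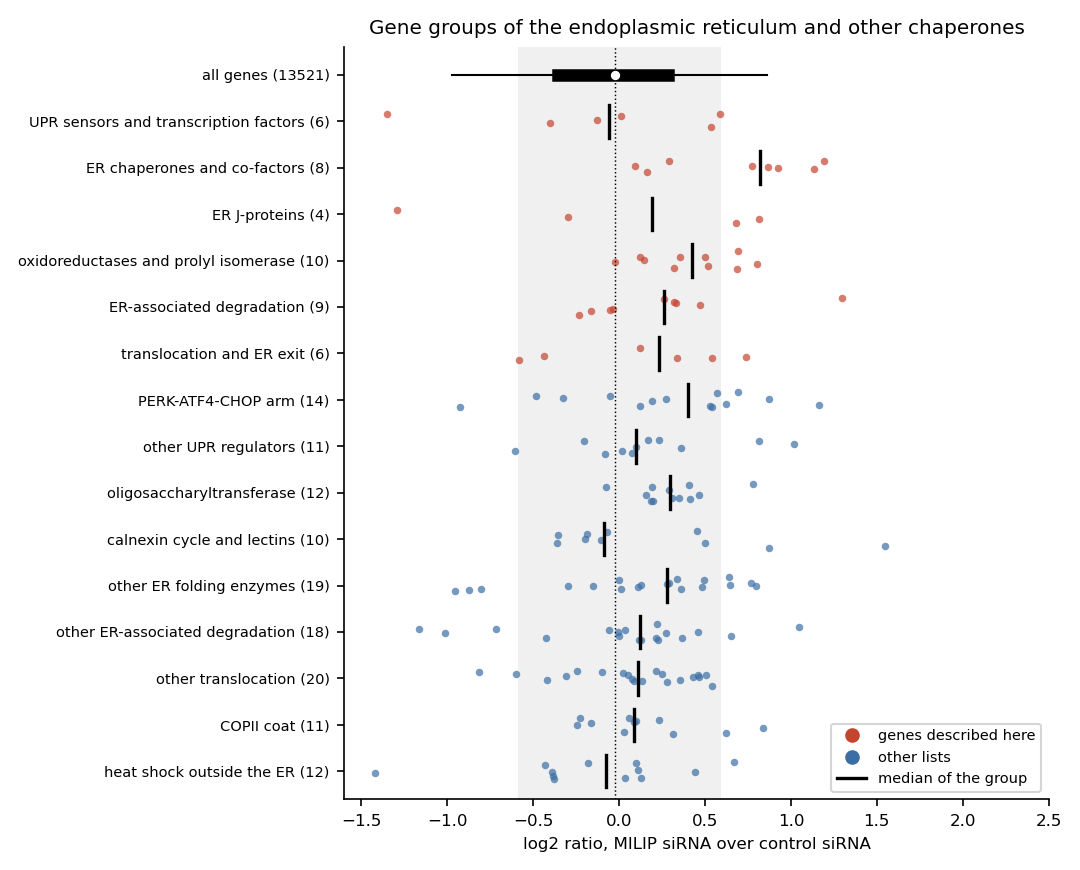
Log2 ratio of MILIP siRNA over control siRNA (x axis) for each gene of the 6 groups described here (red) and of 9 further lists (blue), with the number of genes that passed the filter in parentheses and black bars at the group medians; points are jittered vertically. The top row gives all 13521 genes that passed as median (white dot), middle 50% (thick bar) and middle 90% (thin line), and the grey band marks ratios within 1.5-fold. The chaperones and co-factors have the highest median, 0.82.

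Log2 ratios in this comparison varied with properties of the transcript over all genes. Across 13398 genes Spearman's rho with transcript GC content was 0.29 and with transcript length −0.18, and across the 43 genes it was 0.34 and −0.48. These are descriptions across genes that share the same pair of libraries. Of the 23 ER genes with a transcript under 3000 bases, 11 were higher and none was lower, with a median of 0.54, beside 12.5% higher and 9.25% lower of all genes of that length. Of the 20 with 3000 bases or more, 2 were higher and 2 lower, with a median of 0.05, beside 9.76% higher and 18.3% lower of all genes of that length. With the GC trend of all genes removed the median of the 43 genes was 0.37, and 0.32 once the trend with length was taken out too. Removal of the GC trend turned the sign of ERO1A, EDEM1, DERL1 and SEL1L, all within 1.5-fold, and removal of both trends that of ERO1A, EDEM1, SEL1L and DNAJC10. The part of GC content and length in the single ratios was not tested.

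**Figure D5:**
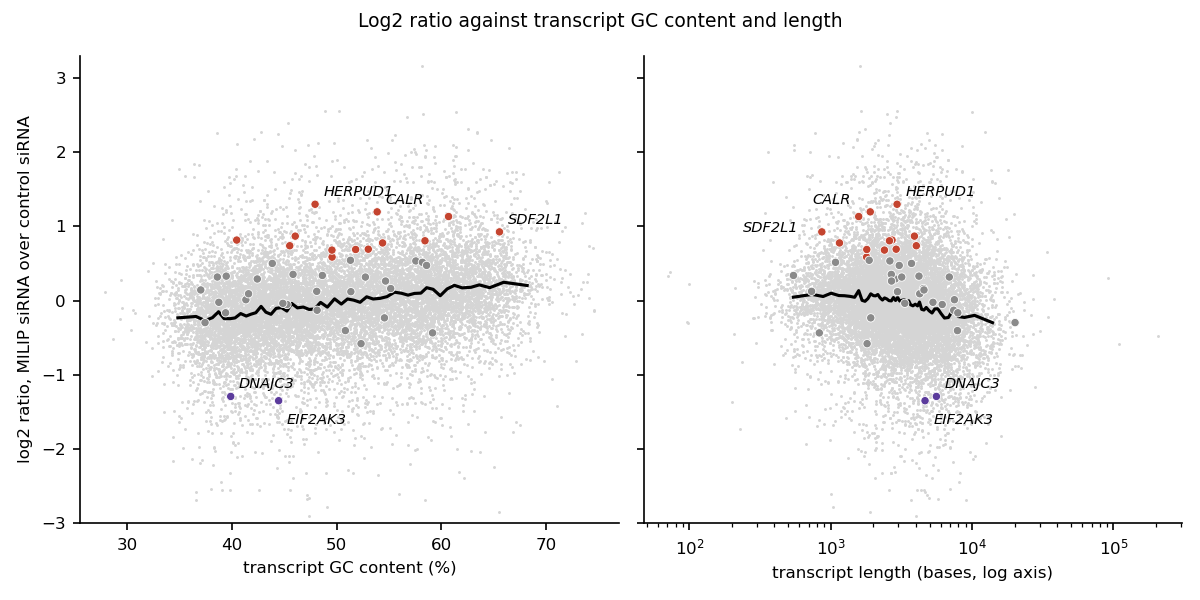
Log2 ratio of MILIP siRNA over control siRNA (y axis) against transcript GC content in percent (left) and transcript length in bases on a log axis (right); small grey dots are all genes that passed and have a reference transcript, the black line joins medians of 50 bins, and large dots are the 43 ER genes, red where at least 1.5-fold higher, purple where at least 1.5-fold lower and dark grey otherwise. HERPUD1, CALR and SDF2L1 lie above the line of medians in both panels, and EIF2AK3 and DNAJC3 below it.

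Level and the length of the 3′ untranslated region were also examined. Spearman's rho of the ratio with the length of that region was −0.41 across the 43 genes and −0.17 across 12214 genes. All 9 ER genes with a mean value of at least 300 had a log2 ratio above 0, 4 of them were at least 1.5-fold higher and their median was 0.54, beside 7.81% higher, 10.4% lower and a median of −0.05 over the 512 genes of that level. Of the 34 with a lower mean, 22 had a ratio above 0, 9 were higher and 2 lower, with a median of 0.21, beside 11.3% higher, 14.0% lower and a median of −0.02 over all genes of that level. Spearman's rho of the ratio with the mean value was 0.15 across the 43 genes and −0.10 across all genes. Exons of 23 of the 44 genes overlap another annotated gene, 4 of the 13 higher genes among them (CALR, DNAJB9, DNAJB11 and P4HB). Whether the counting used strand is not given in the sources used here, so reads of such pairs may not be separable. For CALR the overlap is 14.2% of exonic bases, for P4HB 20.3%, and the genes without any overlap include HERPUD1, CRELD2, SDF2L1, HSPA5, MANF and DNAJC3.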

How the data were processed

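RNA from A549 cells was sequenced 48 h after transfection, in 1 library per condition. The submitters' processing notes name TopHat2 2.0.12, HTSeq 0.6.1 and hg38. Strand setting, annotation and scaling are not given in the sources used here. The authors deposited a signal per gene and library that their columns call read counts: every value above 0 is a whole multiple of 1 step per library, to within 0.01 reads, and the columns sum to 1016809 and 978499, so the values were used as scaled read counts. The authors' columns of fold changes, p-values, q-values and calls were not used. Reads behind a value were taken as value over step.

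Log2 ratios used a pseudocount of 1 and covered the 13521 genes whose mean reached 1. Transcript length, GC content and exon overlaps came from GENCODE 29, with 1 transcript per gene (99.1% of these genes), and promoter windows from RefSeq (GRCh38.p14). All members are named, and of each further list the 2 highest and the 2 lowest genes. SEC61A2 and SSR4 were added after their values were seen. The members and lists were chosen with earlier results of these data known. Alternatives were a pseudocount of 0.1 or none, median-of-ratios scaling, no filter, a mean of at least 5, a 2-fold threshold, and removal of trends with GC content and length as medians of 50 bins. Calculations were tested on simulated data. The tools were numpy 2.4.6 and pandas 2.3.3 under Python 3.11.15, scipy 1.17.1 for the limits, and for drawing matplotlib 3.10.9.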

Additional observations from a re-analysis of the deposited data

How the results depend on the processing

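No paired analysis was possible because neither condition was repeated, so leaving out a library was not possible either. The counts of 13 higher and 2 lower genes held with a pseudocount of 0.1 or none, median-of-ratios scaling, no filter and a mean of at least 5. A 2-fold threshold left 3 higher and 2 lower, and among other ER genes 4 higher and 2 lower. Removal of the GC trend gave 13 higher and 3 lower, and removal of both the GC and the length trend 14 and 3: XBP1 dropped to 0.53 in both, PDIA3 reached 0.66 and 0.71, EDEM3 0.60 in the second, and SERP1 −0.61 and −0.64. With the GC trend removed the median of the sensors became 0.076 and that of the chaperones 0.69. With both removed they were 0.11 and 0.62, and that of the J-proteins was 0.36. Without a filter, DERL3 at 0 entered and the median of the degradation genes was 0.13. Without genes whose exons overlap another gene, an alternative chosen after seeing the data, 1 gene was lower, since EIF2AK3 is left out there. The heat shock list without HSPD1 and HSPE1 was also added after seeing the data. The cause of the changes with the trends was not tested. Variation between cultures cannot be measured here.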
